A study of Mus musculus with 173 samples.

Results

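The hypothalamus/thalamus tissue of 8 wild-type mice was compared with the hippocampus of the same 8 mice. The 16 libraries were taken by tissue and genotype label out of 173 in the series, and joined into 8 pairs by the animal code in the library names. The mice were C57BL/6, 6 months old, 4 females and 4 males, and wild type at Htt per the labels, which also give them as housed with heterozygous Q20 mice. Polyadenylated RNA was sequenced in a survey of 11 tissues from these mice and from mice with an Htt (huntingtin) knock-in allele of 175 CAG codons. The 8 Q175 mice, heterozygous for that allele, of the same strain, age and sex numbers and housed with Q175 mice, are used here only to repeat the tissue comparison. Mice are named by sex and by the number that ends their animal code (female 3, male 7).

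The hippocampus is a telencephalic structure built mainly of excitatory pyramidal cells in areas CA1 to CA3 and of granule cells in the dentate gyrus. These cells load glutamate into vesicles chiefly with VGLUT1 (Slc17a7). Thalamus and hypothalamus arise from the diencephalic side of the forebrain: thalamic relay neurons use VGLUT2 (Slc17a6) and keep the transcription factor Tcf7l2 in adult life, and the hypothalamus holds small nuclei of neurons that release peptides controlling hormones, feeding, sleep and water balance. The labels give both regions as a single tissue, so a value of this tissue is a mixture of them. In bulk RNA, fewer cells of a type and less RNA per cell cannot be told apart.

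Promoter sequences of 5 genes that carry the contrast are shown first: both vesicular glutamate transporters, the peptide genes Pmch and Hcrt, and the pyramidal cell factor Neurod6. Each is the 150 bases before the gene start in RefSeq (GRCm38.p6), 5′ to 3′ on the gene's strand, with letters in capitals where 1 of 12 short motifs searched on both strands was found.
Slc17a6 (chr7:51621680-51621829, + strand, the first of 2 listed starts): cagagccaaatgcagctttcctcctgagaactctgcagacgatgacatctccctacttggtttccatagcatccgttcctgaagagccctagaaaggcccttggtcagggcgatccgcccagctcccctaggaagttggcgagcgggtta
Slc17a7 (chr7:45163771-45163920, + strand): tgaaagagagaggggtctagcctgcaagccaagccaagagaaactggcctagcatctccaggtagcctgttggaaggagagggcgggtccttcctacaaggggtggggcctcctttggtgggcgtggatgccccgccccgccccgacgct
Pmch (chr10:88090922-88091071, + strand): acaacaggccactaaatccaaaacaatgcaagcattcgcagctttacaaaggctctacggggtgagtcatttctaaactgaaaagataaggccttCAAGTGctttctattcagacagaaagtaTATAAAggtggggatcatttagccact
Hcrt (chr11:100762932-100763081, - strand): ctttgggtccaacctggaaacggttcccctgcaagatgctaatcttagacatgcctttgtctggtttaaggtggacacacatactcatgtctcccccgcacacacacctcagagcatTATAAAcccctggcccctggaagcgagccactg
Neurod6 (chr6:55681264-55681413, - strand): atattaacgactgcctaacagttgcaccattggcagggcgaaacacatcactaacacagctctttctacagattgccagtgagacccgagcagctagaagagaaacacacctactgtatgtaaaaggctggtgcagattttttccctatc
The capitals are a TATA box word (TATAAA) in Pmch and Hcrt, 27 and 33 bases before the start, and in Pmch also the word CAAGTG, 55 bases before the start. TATAAA occurred on either strand in 13.6% of all 32851 promoter windows of 300 bases (250 before and 50 after the start) and CAAGTG in 13.6%. Words of 12 kinds were searched, for Tcf/Lef factors, NeuroD, the TATA box, E-box factors, CREB (whole and shortened), Egr, Mef2, homeodomain factors, Nkx2 factors (in 2 forms) and the NRSE. They were picked by hand without a list fixed beforehand, the shares of all 12 are given here, and no share was tested. Of 12252 tested genes matched by symbol, 1130 were at least 2-fold higher in hypothalamus/thalamus and 885 in hippocampus. The NeuroD word CAGATG stood in 14.5% of all matched genes, 18.3% of the first set and 17.4% of the second. The shares were 13.9%, 17.5% and 16.5% for the Nkx2 word CAAGTG, 9.12%, 11.8% and 12.3% for TATAAA, 3.49%, 5.4% and 4.18% for the homeodomain word TAATTA, 3.04%, 3.19% and 3.95% for the Tcf/Lef word ATCAAAG, and 0.555%, 0.973% and 1.13% for the NRSE word TTCAGCACC. They were 11.2%, 7.7% and 9.72% for the E-box CACGTG, 12.3%, 7.96% and 8.02% for the short CREB word TGACGT, and 3.33%, 2.48% and 1.69% for the whole TGACGTCA, which contains it. They were 2.29%, 1.95% and 2.26% for the longer Nkx2 word CACTTAA, 1.35%, 1.24% and 1.13% for the Egr word GCGTGGGCG, and 0.188%, 0.265% and 0% for the Mef2 word. A match is a run of letters and not a binding site, and 6 words were more frequent in both sets than in all matched genes while the other 6 were not.

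The 16 libraries held between 29.8 and 39.7 M (mega) estimated counts each. The first principal component of the 16 libraries took 84.1% of the variance and separated the tissues, and the second took 4.55%. The transcripts of the sex chromosomes matched the sex label in 16 of 16 libraries. The hypothalamus/thalamus library of male 1 stood apart: its log2 levels fell with gene length, with a slope of -0.188 per doubling of length against its tissue's mean, where the other 15 libraries lay between -0.0561 and 0.0540. Without male 1 the contrast called 12162 genes, 2810 of them at least 2-fold. The hypothalamus/thalamus library of male 7 had low levels of several habenula genes (Pou4f1, Chrnb4 and Gpr151 among them), as given below with other nuclei.

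The markers that define each tissue went with the labels. Tcf7l2, the Wnt pathway transcription factor of thalamic neurons, had 4.26, 4.87 and 5.55 counts scaled to the library total (CPM; lowest, median and highest of 8 libraries) in hippocampus and 122, 144 and 179.9 CPM in hypothalamus/thalamus. Slc17a6 had 7.89, 10.1 and 17.7 CPM in hippocampus and 333, 360.4 and 440.3 CPM in hypothalamus/thalamus. Slc17a7 had the opposite order, with 1159, 1228 and 1326 CPM in hippocampus and 54.8, 79.7 and 119 CPM in hypothalamus/thalamus. The 8 libraries of one tissue lay apart from the 8 of the other for all 3 genes. The log2 fold change, positive where hypothalamus/thalamus was higher, was 4.9 ± 0.0852 (SE) for Tcf7l2 (adjusted p = 9.84e-13, edgeR), 5.06 ± 0.134 for Slc17a6 (adjusted p = 7.41e-11) and -3.98 ± 0.147 for Slc17a7 (adjusted p = 1.14e-09). Slc17a6 was 33.3-fold higher in one tissue and Slc17a7 15.7-fold higher in the other. The plot of region genes by mouse joins both tissues of each animal.

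**Figure D1:**
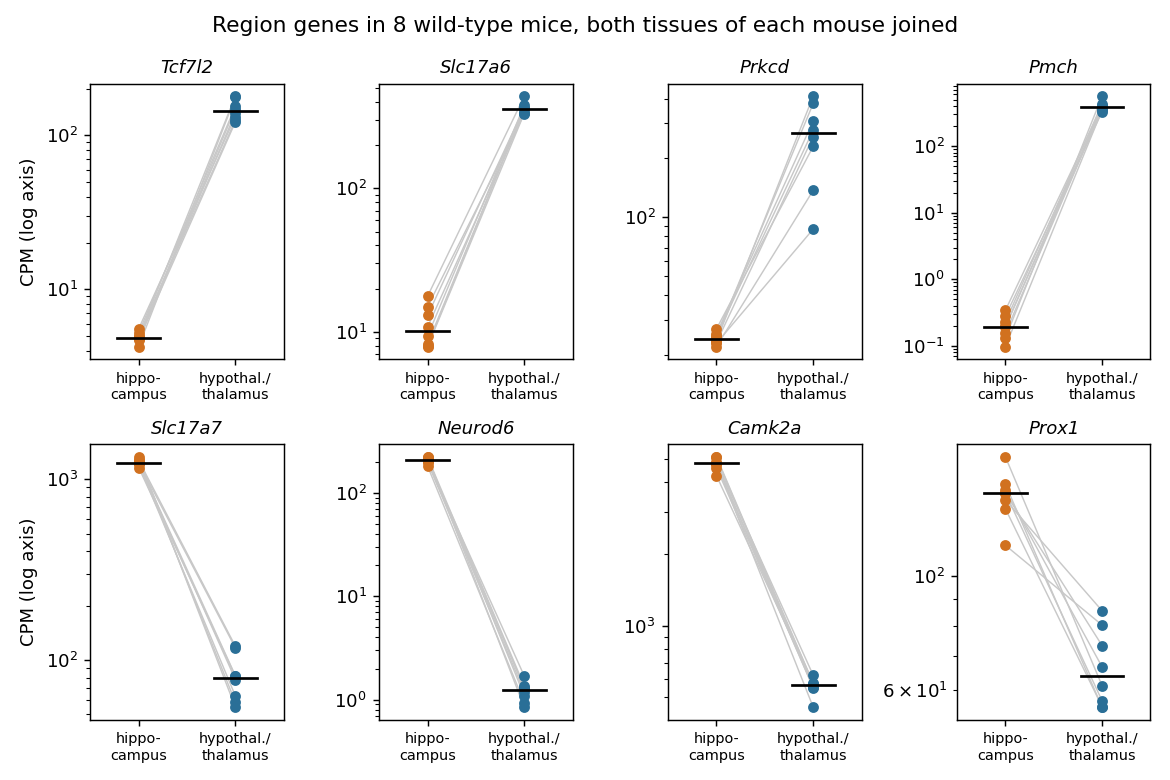
CPM on a log axis of 8 genes in hippocampus (orange) and hypothalamus/thalamus (blue); each point is 1 library, grey lines join the tissues of a mouse and black bars are medians. Tcf7l2, Slc17a6, Prkcd and Pmch are higher in hypothalamus/thalamus in all 8 mice and Slc17a7, Neurod6, Camk2a and Prox1 in hippocampus; Prkcd spreads from 87 to 412 CPM within hypothalamus/thalamus.

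Most tested genes differed between the tissues. Of 16582 genes, 11859 (71.5%) were called at an adjusted p under 0.05 by edgeR's quasi-likelihood test with mouse and tissue as terms. Of these, 6039 (36.4%) were higher in hypothalamus/thalamus and 5820 (35.1%) in hippocampus. With a difference of at least 2-fold asked as well, 2786 genes (16.8%) were called, 1540 (9.29%) higher in hypothalamus/thalamus and 1246 (7.51%) in hippocampus. The libraries of the tissues did not overlap for 6866 genes (41.4%). At 32-fold or more, 72 genes were higher in hypothalamus/thalamus and 32 in hippocampus. The balance of directions rested on the scale: 50.9% of called genes were higher in hypothalamus/thalamus on counts, and 65.2% with limma on log2(FPKM + 1), where the median of all genes stood at 0.10 in place of 0.01. The tissue difference was not called to differ between females and males for any gene (0 by edgeR, 1 by DESeq2; 1321 genes, 7.97%, at an unadjusted p under 0.05).

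**Figure D2:**
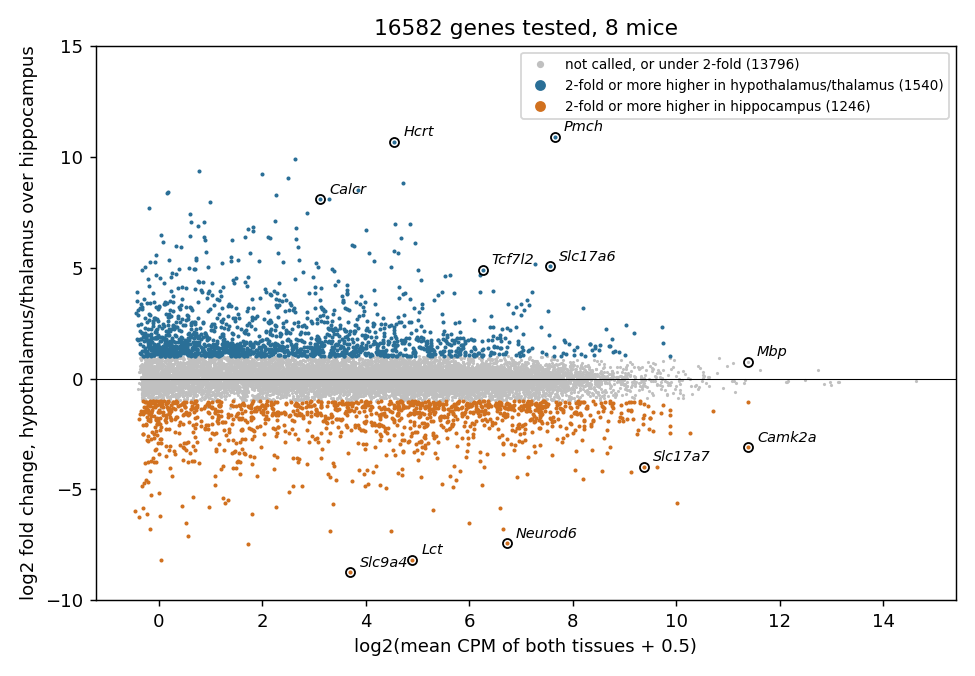
Each point is 1 of 16582 genes; the x axis is log2 of the mean CPM of both tissues plus 0.5 and the y axis the log2 fold change of hypothalamus/thalamus over hippocampus. Blue (1540) and orange (1246) genes were called and differed at least 2-fold, and Pmch and Hcrt lie highest.

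The largest rises were peptide genes of the lateral hypothalamus. Pmch, the precursor of melanin-concentrating hormone, a peptide of feeding and sleep, had 0.0978, 0.194 and 0.342 CPM in hippocampus and 330.1, 386 and 564 CPM in hypothalamus/thalamus. Hcrt, the precursor of the orexins that sustain wakefulness, had 0, 0.0156 and 0.0957 CPM and 36.5, 43.3 and 65 CPM. No library of one tissue came near the other for either gene. Both genes were near 0 in hippocampus and passed the filter on low counts only through hypothalamus/thalamus. Their direction was fixed by the filter, so it and the lack of overlap are no separate support. Their log2 fold changes were 10.91 ± 0.111 (adjusted p = 6.30e-14) and 10.69 ± 0.17 (adjusted p = 6.87e-13).

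Among the 12 largest rises with at least 10 CPM, developmental transcription factors stood next to the peptides. Sim1, which specifies oxytocin and vasopressin neurons, had 0, 0 and 0.0652 CPM in hippocampus and 6.09, 10.8 and 14.1 CPM in hypothalamus/thalamus. Shox2 and Gbx2, homeodomain factors of thalamic neurons, had log2 fold changes of 8.8 ± 0.136 and 8.08 ± 0.215, and Isl1, a LIM factor of hypothalamic neurons, 7.48 ± 0.166. Also among the 12 were Abhd12b (8.52), the calcitonin receptor Calcr (8.1), the insulin receptor substrate Irs4 (6.97), the dopamine transporter Slc6a3 (6.95) and the glycine receptor subunit Glra1 (6.78). Members of the 12 near 0 in hippocampus, such as Sim1, Gbx2, Isl1 and Calcr, passed the filter on low counts only through hypothalamus/thalamus. The filter fixed the direction of those members too.

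In the other direction, the largest differences were genes of pyramidal and granule cells. Slc9a4, a sodium/proton exchanger, had 22.8, 25.3 and 27.2 CPM in hippocampus and 0, 0.0419 and 0.142 CPM in hypothalamus/thalamus, and Lct, the lactase gene, 46.4, 59.4 and 66.1 CPM and 0.0541, 0.171 and 0.384 CPM. Neurod6, a basic helix-loop-helix factor of pyramidal neurons, had 183, 211 and 224 CPM and 0.844, 1.24 and 1.69 CPM. Slc9a4 and Lct were near 0 in hypothalamus/thalamus and passed the filter on low counts only through hippocampus, which fixed their direction. The tissues did not overlap for Slc9a4, Lct and Neurod6, as for 41.4% of all genes tested. Log2 fold changes were -8.73 ± 0.165, -8.18 ± 0.169 and -7.44 ± 0.0922, so Neurod6 was 173-fold higher in hippocampus (adjusted p = 2.01e-13). Also among the 12 in this direction were Spink8 (-6.88), the Mas receptor gene Mas1 (-6.88), the thyroid hormone binding crystallin Crym (-6.76), Neurod2 (-6.5), desmoplakin Dsp (-5.92), the inositol trisphosphate kinase Itpka (-5.85), the dendritic protein gene Ddn (-5.61) and Mirt1 (-5.13).

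All thalamic neuron genes of the list were higher in hypothalamus/thalamus: 22 of 22 were called and 21 differed at least 2-fold. The shares of all genes were 36.4% and 9.29%. The median log2 fold change was 3.41 against 0.01 over all genes. The list holds the markers Tcf7l2 and Slc17a6 and was chosen with earlier results of these data known. Its count is therefore no separate support for the contrast. Prkcd, a protein kinase C isoform of relay neurons, had 22, 24.1 and 27.1 CPM in hippocampus and 87, 267 and 412 CPM in hypothalamus/thalamus. Its spread within hypothalamus/thalamus was wide, but the lowest library there was above every hippocampus library. Synpo2 (3.85), the receptor activity modifier Ramp3 (3.82), Rgs16 (3.53), the forkhead factor Foxp2 (5.02) and Slitrk6 (5.29) had log2 fold changes over 3. Lef1, a partner of Tcf7l2 in Wnt signalling, reached 2.61 ± 0.113 and the nuclear receptor Rora 2.32 ± 0.13. Per length (FPKM, fragments scaled to gene length and library total; mean ± SD, n = 8), the highest levels in hypothalamus/thalamus were those of Prkcd, 115 ± 47.5 FPKM, and of the vesicle protein gene Vamp1, 114 ± 22.1 FPKM. Vamp1 stood at 46.1 ± 2.35 FPKM in hippocampus.

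Most hypothalamic peptide precursors were higher in hypothalamus/thalamus, and some in hippocampus. Of 36 on the list, 26 passed the filter on low counts. Of these, 19 (73.1%) were called higher in hypothalamus/thalamus, all at least 2-fold, and 7 (26.9%) in hippocampus. The shares of all genes were 36.4% and 35.1%. Some members, such as Pmch, Hcrt and Ucn3, passed only through their hypothalamus/thalamus libraries, so their direction was fixed by the filter. Oxt, the oxytocin precursor, had 0, 0.096 and 1.82 CPM in hippocampus and 3.86, 32.6 and 58 CPM in hypothalamus/thalamus, and Avp, the vasopressin precursor, 0.255, 0.28 and 0.749 CPM and 6.78, 22.9 and 43.7 CPM. The hippocampus library of female 9 held the highest Oxt and the highest Avp of its tissue. Log2 fold changes were 6.71 ± 0.379 and 6.02 ± 0.155. Trh, the thyrotropin-releasing hormone precursor, reached 6.33 ± 0.152, galanin Gal 5.33 ± 0.136, Npvf 6.89 ± 0.348, Ghrh 5.44 ± 0.254 and Cartpt 4.01 ± 0.138. Ucn3, a urocortin, had 0 counts in hippocampus and was at least 228-fold higher in hypothalamus/thalamus, against a floor of 3 counts over the group.

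The 7 peptide genes higher in hippocampus were Grp (-2.68), Npy (-2.16), Vip (-1.93), Cck (-1.82), Bdnf (-1.56), Sst (-1.09) and Nmb (-0.53). Most of these are made by cortical and hippocampal interneurons as well as by hypothalamic cells. Per length, Pmch was the most abundant precursor of the list in hypothalamus/thalamus, at 562 ± 108 FPKM, and Sst in hippocampus, at 196 ± 16.2 FPKM.

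The list of peptide processing and secretion genes moved less than the peptides. It also holds the imprinted genes Peg3, Ndn, Magel2, Nnat and Dlk1, which count among its members here. Of 20 tested, 14 (70%) were called higher in hypothalamus/thalamus (8 at least 2-fold) and 4 (20%) in hippocampus, with a median of 0.52. The shares of all genes were 36.4% and 35.1%. Baiap3, a dense-core vesicle fusion factor, reached 5.16 ± 0.174, the imprinted genes Magel2 4.12 ± 0.226 and Dlk1 3.92 ± 0.176, and Resp18 2.86 ± 0.133. Scg2, a secretogranin, was higher by 1.8 ± 0.0611, while the related granin Chgb was higher in hippocampus (-1.33 ± 0.0553). Cpe, carboxypeptidase E, had the highest level per length in both tissues, 1113 ± 38.8 FPKM in hippocampus and 1069.8 ± 92.9 FPKM in hypothalamus/thalamus. Its difference of -0.19 on the log2 scale (adjusted p = 0.00111, edgeR) was not called with limma on log2 FPKM plus 1 or plus 0.1 (adjusted p = 0.245 and 0.240) or in males only (adjusted p = 0.0904).

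Regional transcription factors gave the widest contrast. Of 21 hypothalamic factors tested (of 26), 19 (90.5%) were called higher in hypothalamus/thalamus, with a median of 4.69. At least 2-fold higher were 18 (10 with limma on log2(FPKM + 1)). The shares of all genes were 36.4% and 9.29%. Members near 0 in hippocampus, such as Sim1, Foxb1, Nkx2-4 and Lhx8, passed the filter on low counts only through hypothalamus/thalamus. Their direction was fixed by the filter, so their calls are no separate support. Foxb1, a forkhead factor of the mammillary body, had 2 counts in hippocampus and 2027 in hypothalamus/thalamus, a ratio of 964 (exact 95% interval 266 to 7961, counting error only). Nkx2-4 and Lhx8 had 0 counts in hippocampus and were at least 112-fold and 115-fold higher. Otp (7.06), Fezf1 (6.85), Six6 (6.24) and Six3 (5.98) followed. Lhx6, which also marks cortical interneurons, was higher in hippocampus (-1.45).

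Of 22 telencephalic factors, 20 (90.9%) were higher in hippocampus, 18 at least 2-fold, with a median of -2.64. The shares of all genes were 35.1% and 7.51%. Emx1, a homeodomain factor of the dorsal telencephalon, had 4.67, 5.5 and 7.72 CPM in hippocampus and 0.0282, 0.061 and 0.179 CPM in hypothalamus/thalamus, with no overlap. It was near 0 in hypothalamus/thalamus and passed the filter on low counts only through hippocampus. The filter thus fixed its direction. Neurod2 (-6.5), Emx1 (-6.09), Fezf2 (-4.83) and Bcl11b (-4.01) were lower in hypothalamus/thalamus. Cux2 was the exception, higher there by 1.27 ± 0.0635. Zbtb18 had the highest level per length of this list in hippocampus, 147 ± 8.99 FPKM.

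Pyramidal cell genes were mostly higher in hippocampus, with 22 of 27 (81.5%) called (20 at least 2-fold) and a median of -2.38. This list holds the marker Slc17a7. Over all genes, 35.1% were called higher in hippocampus and 7.51% were called and at least 2-fold higher. Nrgn, a calmodulin-binding protein of dendrites, had 645, 704.4 and 837 CPM in hippocampus and 25.8, 39.96 and 61.8 CPM in hypothalamus/thalamus. The 5 other members went the other way: Ptpn5 (0.36) and the CA2 genes Pcp4 (1.98), Cacng5 (1.52), Map3k15 (1.26) and Amigo2 (1.03). Pcp4 had 68.6, 71 and 85.6 CPM in hippocampus and 176, 274 and 401 CPM in hypothalamus/thalamus. Dentate granule genes were higher in hippocampus in 18 of 20 cases (90%, 15 at least 2-fold, median -1.86), against the same shares of all genes. Tdo2 (-4.09), Trpc6 (-3.34) and C1ql2 (-2.92) followed Lct and Dsp. Prox1, the factor of granule cell identity, had 114, 145 and 169.8 CPM and 55.6, 63.8 and 85.5 CPM, and Calb1, calbindin, was higher in hypothalamus/thalamus (0.56 ± 0.0877).

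**Figure D3:**
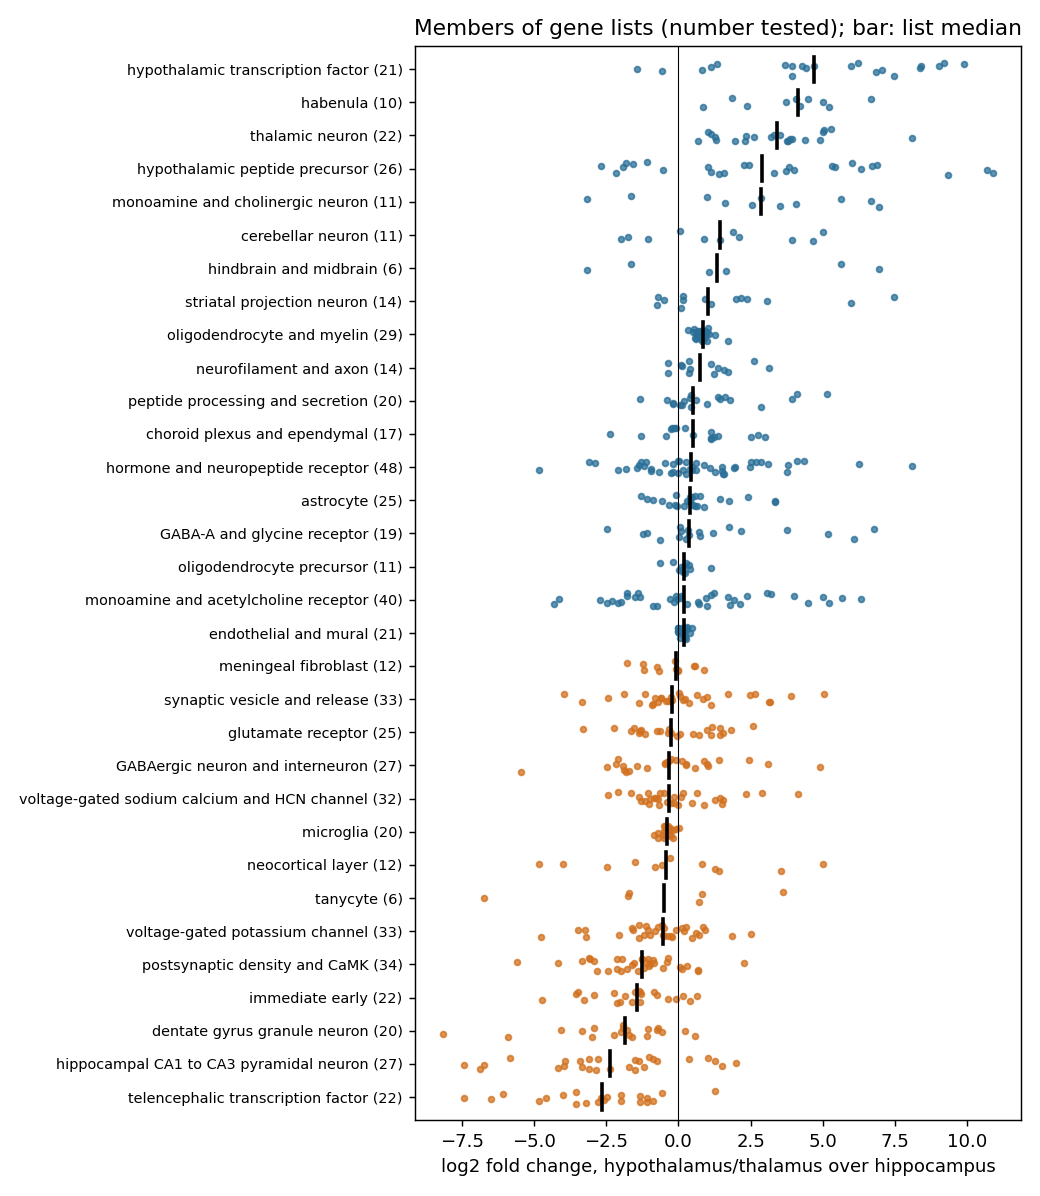
Log2 fold changes of the tested members of 32 gene lists with at least 3 tested members, ordered by median (black bar), with the number tested in brackets; blue lists have a median above 0 and orange lists below 0. Hypothalamic transcription factors lie highest (median 4.69) and telencephalic ones lowest (-2.64).

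Excitatory synapse genes were lower in hypothalamus/thalamus. Of 34 genes of the postsynaptic density and CaM kinases, 28 were higher in hippocampus, 22 at least 2-fold, and 5 in hypothalamus/thalamus (median -1.27). These are 82.4% and 14.7% of the list, against 35.1% and 36.4% of all genes. Of all genes, 7.51% were at least 2-fold higher in hippocampus. Camk2a, the alpha subunit of CaM kinase II, had 4259, 4799.6 and 5110.5 CPM in hippocampus and 455, 562 and 619.6 CPM in hypothalamus/thalamus, a log2 fold change of -3.11 ± 0.0555 (adjusted p = 1.06e-12). Camk2d, the delta subunit, had the opposite order, with 30.2, 34 and 48 CPM and 156, 177 and 187 CPM (2.27 ± 0.0677). Ddn, Kalrn (-3.35), Baiap2 (-3.07) and calcineurin Ppp3ca (-2.46) were lower in hypothalamus/thalamus.

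Of 25 glutamate receptor genes, 13 (52%) were higher in hippocampus and 10 (40%) in hypothalamus/thalamus, where the shares of all genes were 35.1% and 36.4%. The NMDA subunits Grin2a (-3.31) and Grin2b (-2.25) were lower in hypothalamus/thalamus, while Grin2d (1.84) and Grin3a (1.15) were higher. Gria1 (-1.55) and Gria2 (-1.65) were lower and Gria4 (1.12) higher. The metabotropic receptor Grm4 rose most (2.57 ± 0.0853). Grin2a and Grin2b were also low in the hypothalamus/thalamus library of male 1, where Grin2b had 4.0 CPM against 14 to 24.7 CPM in the other 7. Without male 1 the log2 fold changes were -3.17 for Grin2a (adjusted p = 4.21e-08, edgeR) and -2.05 for Grin2b (adjusted p = 4.62e-06), and as many glutamate receptor genes were at least 2-fold different as with male 1 (7 higher and 8 lower in hypothalamus/thalamus).

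Inhibitory receptors showed 11 of 19 genes (57.9%) higher in hypothalamus/thalamus and 4 (21.1%) in hippocampus, against 36.4% and 35.1% of all genes. Gabra5, a GABA-A subunit of hippocampal pyramidal cells, had 197, 212 and 233 CPM in hippocampus and 25, 41.5 and 45.9 CPM in hypothalamus/thalamus. Gabrq had 0.374, 0.843 and 1.82 CPM and 29.4, 67 and 84 CPM (6.09 ± 0.225), Gabre rose by 5.19 ± 0.248, and the glycine receptor Glra3 by 3.76 ± 0.238. Of 27 GABAergic neuron genes, 11 (40.7%) were higher in hypothalamus/thalamus and 15 (55.6%) in hippocampus, against the same shares of all genes. Gad2 (1.42) and calretinin Calb2 (3.09) were among the first, and Cort (-5.47), Htr3a (-2.49) and Crhbp (-2.09) among the second. Gad1 differed by 0.13 ± 0.0546.

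Of 11 monoamine and cholinergic neuron genes, 9 were called higher in hypothalamus/thalamus, each at least 2-fold, and Dbh (-3.18) and Tph2 (-1.66) in hippocampus. Both of the latter were low in both tissues. Dbh had 0.404 to 1.12 CPM in hippocampus and at most 0.143 CPM in hypothalamus/thalamus, and Tph2 1.12 to 1.96 CPM and 0.356 to 0.741 CPM. Th, tyrosine hydroxylase, reached 5.64 ± 0.105, choline acetyltransferase Chat 6.67 ± 0.135 and histidine decarboxylase Hdc 3.52 ± 0.0864. Of 40 receptors of these transmitters, 19 (47.5%) were higher in hypothalamus/thalamus and 15 (37.5%) in hippocampus, against 36.4% and 35.1% of all genes. Chrna6 (6.33), Adra2b (5.67) and Drd2 (3.07) were higher in hypothalamus/thalamus, and Chrm1 (-4.3), Adra1d (-4.14) and Chrna5 (-2.73) in hippocampus. Of 48 hormone and peptide receptors, 27 (56.25%) were higher in hypothalamus/thalamus and 14 (29.2%) in hippocampus, against the same shares of all genes. Mc3r, a melanocortin receptor, rose by 6.26 ± 0.265, Galr1 by 4.36 ± 0.186 and the kappa opioid receptor Oprk1 by 3.81 ± 0.0602. The mineralocorticoid receptor Nr3c2 had 205, 227 and 271 CPM in hippocampus and 24.7, 31.9 and 34.5 CPM in hypothalamus/thalamus, whereas the glucocorticoid receptor Nr3c1 differed by 0.26 ± 0.0481. Avpr1b (-4.83) and Sstr4 (-3.09) were higher in hippocampus, where Avpr1b was low, at 0.391 to 0.79 CPM. Thra, the thyroid hormone receptor with the highest level per length of the list, stood at 384 ± 12.1 FPKM in hippocampus and 193 ± 17.5 FPKM in hypothalamus/thalamus.

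Ion channels leaned to hippocampus. Potassium channel genes were higher there in 22 of 33 cases and in hypothalamus/thalamus in 9 (median -0.53), and sodium, calcium and HCN channel genes in 19 of 32 against 11 (median -0.33). These counts are 66.7% and 27.3% of the potassium list and 59.4% and 34.4% of the other. The shares of all genes were 35.1% and 36.4%. Kcnh3 (-4.76), Kcng1 (-3.47) and Kcnip2 (-3.23) were lower in hypothalamus/thalamus. Hcn4, a pacemaker channel, was higher (4.13 ± 0.14). Scn9a (2.91), Cacna2d2 (2.34) and the T-type channel gene Cacna1g (1.27), known for thalamic burst firing, were higher, and Cacna1h (-2.11) was lower.

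Of 33 vesicle release genes, 13 (39.4%) were higher in hypothalamus/thalamus and 15 (45.5%) in hippocampus, against 36.4% and 35.1% of all genes. Syt9 (3.92), Rims3 (3.18), Sncg (3.13) and Syt2 (1.73) were higher in hypothalamus/thalamus. Slc30a3, the vesicular zinc transporter of mossy fibres (-3.35), Cplx2 (-2.44) and Sv2b (-1.9) were lower. Snap25 had the highest level per length, 1011 ± 30.3 FPKM in hippocampus and 840.3 ± 94.5 FPKM in hypothalamus/thalamus. Genes of the neurofilament and axon list were higher in hypothalamus/thalamus in 11 of 14 cases (78.6%, against 36.4% of all genes), with a median of 0.76. The 11 included Prph (2.63), Gap43 (1.72) and Nefh (1.39). Nefl (-0.36) and Map2 (-0.36) were lower. Not all members are axonal, since the list also holds Map2, a protein of dendrites, and the secreted Spp1.

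Activity-regulated genes were lower in hypothalamus/thalamus for the most part (median -1.44). Of 22, 18 (81.8%) were higher in hippocampus, 15 at least 2-fold, and 2 (9.09%) in hypothalamus/thalamus. Over all genes, 35.1% were called higher in hippocampus, 7.51% at least 2-fold, and 36.4% in hypothalamus/thalamus. Egr3 had 25.2, 29.9 and 41.5 CPM in hippocampus and 0.678, 1.13 and 1.79 CPM in hypothalamus/thalamus, and Arc 108, 175 and 231 CPM and 17.1, 22.1 and 29 CPM, without overlap. Egr4 (-3.57), Egr2 (-3.5) and Nr4a3 (-3.27) went with them. Fos (0.64 ± 0.0841) and Dusp1 (0.39 ± 0.090) were higher in hypothalamus/thalamus, with overlapping libraries.

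Glial genes differed by less. All 29 oligodendrocyte and myelin genes of the list were called higher in hypothalamus/thalamus, 4 of them at least 2-fold (median 0.85). The shares of all genes were 36.4% and 9.29%. Mobp, a basic protein of compact myelin, had 509, 722 and 902 CPM in hippocampus and 841, 1279 and 1729.7 CPM in hypothalamus/thalamus, and the tissues overlapped. Mbp, the highest of the list per length, rose by 0.76 ± 0.148; Nkx6-2 (1.7) and Gjb1 (1.26) rose most. The count of myelin genes at least 2-fold higher was 1 in females only, 21 in males only, 8 and 13 with limma on log2 FPKM plus 1 and plus 0.1, and 8 without the 3 mice whose hypothalamus/thalamus library name has a D part. No member's tissue difference was called to differ between sexes. Of 25 astrocyte genes 17 (68%) were higher in hypothalamus/thalamus and 6 (24%) in hippocampus, against 36.4% and 35.1% of all genes. Agt, angiotensinogen, had 17.3, 19 and 20.8 CPM in hippocampus and 163, 193 and 228 CPM in hypothalamus/thalamus; Itih3 rose by 3.36 ± 0.095 and the GABA transporter Slc6a11 by 2.42 ± 0.0456. Gfap (-1.29 ± 0.0498) and the glutamate transporter Slc1a2 (-1.08 ± 0.0757) were higher in hippocampus. Microglial genes were higher in hippocampus in 18 of 20 cases (90%, against 35.1% of all genes), none by 2-fold (median -0.41). Fcrls (-0.84) and P2ry12 (-0.70) led them. Oligodendrocyte precursor genes numbered 6 (54.5%) higher in hypothalamus/thalamus and 2 (18.2%) in hippocampus of 11, and endothelial and mural genes 13 (61.9%) and 0 of 21.

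Lists of neighbouring tissues were checked as markers of what else a dissection could hold. Over all genes, 36.4% were called higher in hypothalamus/thalamus and 35.1% in hippocampus. Choroid plexus and ependymal genes summed to between 55.9 and 164 CPM in hippocampus and 93.7 and 152 CPM in hypothalamus/thalamus. Ttr, the main choroid plexus transcript, had 7.89, 24.9 and 107 CPM and 4.78, 7.29 and 71.6 CPM (log2 fold change -1.3, adjusted p = 0.0582, edgeR). It was called higher in hippocampus with DESeq2 (adjusted p = 0.0268), in females only (adjusted p = 0.0121), without the mice with a D part (adjusted p = 0.0207) and without male 3 (-1.76, adjusted p = 0.00355), and not in the other alternatives (adjusted p from 0.0581 to 0.318). Kl was higher in hippocampus (-2.38), and 9 of 17 genes (52.9%), with Otx2 (3.0) and Clic6 (2.75), were higher in hypothalamus/thalamus. Meningeal genes summed to 216 to 353 CPM and 297 to 448 CPM. Of 12, 5 (41.7%) were higher in hippocampus, led by Dcn (-1.8), and 3 (25%) in hypothalamus/thalamus. Neocortical layer genes numbered 7 of 12 (58.3%) higher in hippocampus and 5 (41.7%) in hypothalamus/thalamus. Of 14 striatal projection neuron genes 8 (57.1%) were higher in hypothalamus/thalamus and 3 (21.4%) in hippocampus. Drd1 at 0.09 ± 0.125 and Adora2a at 0.15 ± 0.13 were not called. Of 11 cerebellar genes 7 (63.6%) were higher in hypothalamus/thalamus, with Cbln1 (4.68) and Zic1 (3.95), which thalamic neurons also express, and 3 (27.3%) in hippocampus. Of 6 tanycyte genes 3 were higher on each side, Gpr50 (3.62) in hypothalamus/thalamus. The pituitary genes Gh and Prl were at or near 0, at most 0.0297 CPM and 0.119 CPM. The part of these cells in the results was not tested.

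Markers of small brain nuclei were unequal among the hypothalamus/thalamus libraries. Pou4f1, a habenula factor that was not tested since fewer than 8 libraries passed the filter on low counts, had between 6.86 and 9.66 CPM in 7 mice and 0.226 CPM in male 7. Chrnb4, the nicotinic subunit of the medial habenula, had between 8.81 and 12.5 CPM in 7 mice and 0.875 CPM in male 7, and Gpr151 between 19.2 and 25.4 CPM against 1.69 CPM. Other members were less reduced there, with Kcnip1 at 46 CPM and Tac2 at 10.8 CPM, and the lowest sum over the list in hypothalamus/thalamus, 99.98 CPM, was above the highest in hippocampus, 67 CPM. The 10 tested habenula genes were all called higher in hypothalamus/thalamus (median 4.15), against 36.4% of all genes. Of the 10, 9 were at least 2-fold higher, against 9.29% of all genes, and 10 without male 7. Some, such as Chat and Chrnb4, were near 0 in hippocampus and passed the filter on low counts only through hypothalamus/thalamus. The filter thus fixed the direction of those members. Nr5a1, a factor of the ventromedial hypothalamus, had 0.205 CPM in male 3 and 0.563 CPM in male 5, and between 3.46 and 6.68 CPM in the other 6.

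Arcuate peptides were low in the same males and in female 3. Pomc had 0.562 CPM in male 3, 0.830 CPM in male 5 and 1.38 CPM in female 3, where the other 5 mice had between 6.72 and 18.9 CPM. Agrp had 0.0256, 0.119 and 0.0576 CPM in those mice and between 0.730 and 1.98 CPM in the others. Oxt and Avp were lowest in male 3 and male 5 too, Oxt at 3.86 and 7.27 CPM against 27 to 58 CPM. Slc6a3, which marks midbrain dopamine neurons, ran from 2.26 CPM in female 7 to 122 CPM in male 3, and En1, a midbrain factor, from 0.0713 CPM to 3.25 CPM in the same mice. Th (18.9 to 53 CPM) and Chrna6 (1.69 to 15.8 CPM) also had their lowest value in female 7 and their highest in male 3. The summed hindbrain and midbrain markers ran from 25.5 to 188 CPM in hypothalamus/thalamus and from 3.28 to 5.44 CPM in hippocampus. Whether these differences lie in the dissection was not tested.

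**Figure D4:**
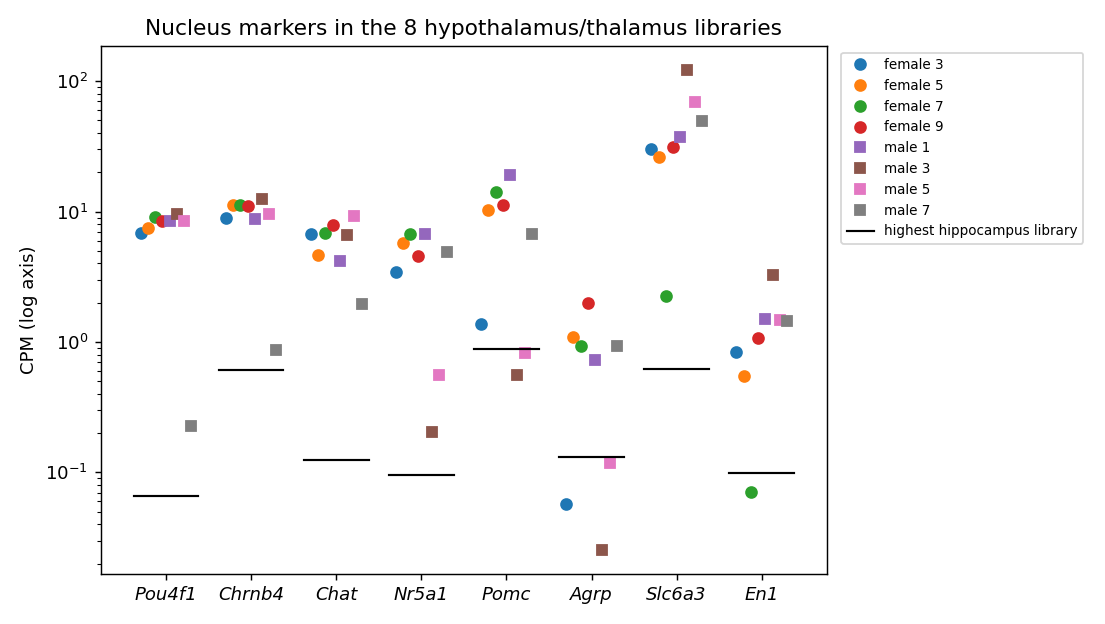
CPM on a log axis of 8 marker genes of small brain nuclei in the 8 hypothalamus/thalamus libraries (circles females, squares males); the black line is the highest hippocampus library. Male 7 is lowest for Pou4f1, Chrnb4 and Chat, males 3 and 5 for Nr5a1 and Pomc, and female 7 for Slc6a3 and En1.

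The same contrast was made in the 8 Q175 mice, which share no library with it. There 2614 genes (15.7%) were called and at least 2-fold different, 1448 (8.71%) higher in hypothalamus/thalamus and 1166 (7.01%) in hippocampus. Of the 2786 genes of the wild-type contrast, 2726 were tested in Q175, 2719 had the same direction, 2682 were also called and 2346 were also at least 2-fold. These 2346 are 84.2% of the wild-type list and 89.7% of the Q175 list. Tcf7l2 had a log2 fold change of 4.64 ± 0.0702 in Q175, Slc17a7 -4.62 ± 0.341 and Pmch 10.45 ± 0.291.

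The tissue difference itself was called to differ between genotypes for 26 of 17228 genes (0.151%; 1627, or 9.44%, at an unadjusted p under 0.05). That count was 10 to 43 when 1 mouse was left out, lowest without wild-type female 3 and highest without wild-type female 7, 53 without the mouse as a block and 140 with DESeq2. Plk5, a polo-like kinase of dentate granule cells, had a log2 fold change of -1.61 ± 0.0669 in wild-type and -0.42 ± 0.109 in Q175 mice (adjusted p of the difference 0.000832). Chgb went from -1.33 ± 0.0553 to -0.79 ± 0.0378 (adjusted p = 0.00129), P2rx5 from 0.22 ± 0.109 to -1.0 ± 0.120, and Wfs1 from -0.88 ± 0.0966 to -0.02 ± 0.0697. Evc2 went from -2.56 ± 0.0566 to -2.01 ± 0.0496 and Cdhr1 from -1.53 ± 0.0676 to -2.13 ± 0.0621. Genotype went with housing, since wild-type mice were housed with Q20 mice, and the effects of genotype and housing cannot be told apart.

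Myelin genes gave a smaller tissue difference in Q175 mice. Their median was 0.20 there and 0.85 in wild-type mice, and 14 were called higher and 1 lower in hypothalamus/thalamus. All 29 had the lower value in Q175, as did 52.2% of the 16436 genes tested in both genotypes. The lower value was also in Q175 for 22 of 22 thalamic, 10 of 10 habenula and 24 of 25 astrocyte genes. The same held for 18 of 21 endothelial and mural and 19 of 20 microglial genes. The microglial median was -0.50 in Q175 and -0.41 in wild-type mice, so there the tissue difference was larger. Other lists went the other way, with the lower value in Q175 for 6 of 27 pyramidal, 4 of 22 activity-regulated and 4 of 17 choroid plexus and ependymal genes. Mobp was at -0.01 ± 0.112 in Q175 mice. The difference between genotypes was called for 1 of the 29, Car2 (-0.85 ± 0.149, adjusted p = 0.0261), and not for Mobp (adjusted p = 0.159). The thalamic list had a median of 3.04 in Q175 mice and 3.41 in wild-type mice, with 18 and 21 of 22 genes at least 2-fold higher. The pyramidal list had medians of -2.34 and -2.38.

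**Figure D5:**
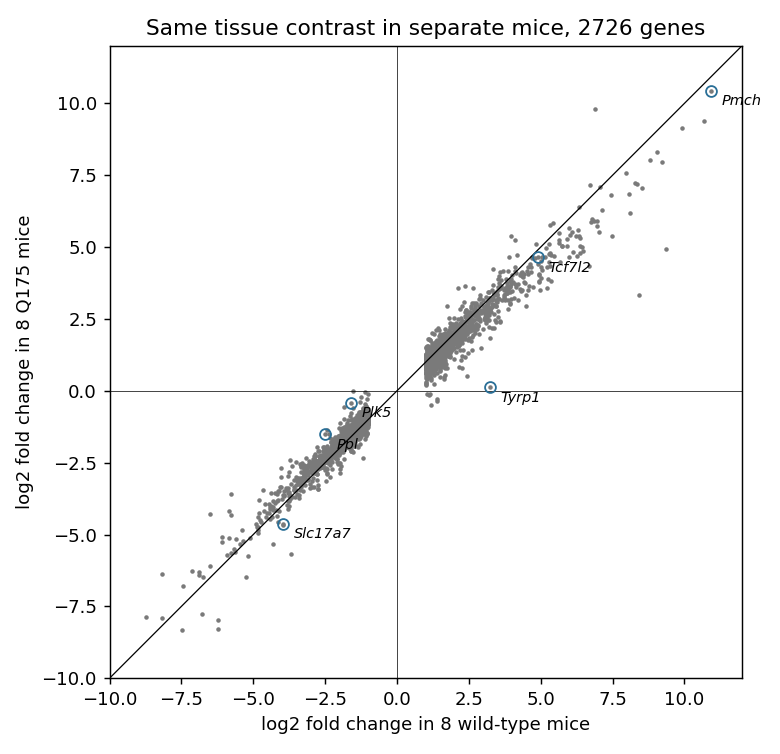
Log2 fold change of hypothalamus/thalamus over hippocampus in wild-type mice (x axis) and in Q175 mice (y axis) for 2726 genes called and at least 2-fold different in wild-type mice; the line marks equal values. All but 7 lie in the same direction, and Tyrp1 (3.24 in wild type, 0.12 in Q175) lies off the line.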

How the data were processed

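Polyadenylated RNA libraries were read through 2 tables that the authors deposited: estimated counts per Ensembl gene, not scaled between libraries, and FPKM values scaled by the authors to gene length and library total. Per the submitters' processing notes the tools included CASAVA 1.8.2. For the aligner, the counter, the build, the gene models and the strand setting, the entry is: not given in the sources used here. Reads of overlapping genes can therefore not be told apart. Of 38561 genes, 36639 had a symbol. Counts were rounded, filtered with filterByExpr by tissue (16582 genes) and tested in edgeR 4.0.16 (R 4.3.3; TMM scaling, robust quasi-likelihood F-test, mouse and tissue as terms, Benjamini-Hochberg adjustment over all genes tested). A gene near 0 in one tissue passed the filter only through the other tissue, which fixed its direction. CPM of single genes are on the TMM scale, CPM summed over lists on the plain total, and log2 fold changes come from the counts. The sex and genotype differences are interaction terms in the same models. The mouse block rests on the animal codes. Deviations from the tissue mean correlated between the tissues of a mouse at 0.129 to 0.407 and between mice at a median of -0.118. Of 8 mice, 5 correlated best with themselves. The deviations were taken from the mean of the same 8 mice. Positive values within mice therefore push those between mice below 0, so the value of -0.118 is partly built in.

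Named genes are the 3 markers, the 12 largest differences in each direction with at least 10 CPM in the higher tissue and 1 direction in 8 mice, members of the 33 lists (680 of 686 symbols matched), and up to 6 genes of each interaction test; Tyrp1 and Car2 were picked after their values were seen. Some genes that the rule names are not reported here. The members and lists were chosen with earlier results of these data known. Alternatives were RLE factors, DESeq2 1.42.0, no filter, no block, limma 3.58.1 on log2 FPKM plus 1 or 0.1, each sex alone, a length correction, and leaving out mice; list counts without male 1 or male 7 were added after seeing the data. On simulated counts, 80 of 100 genes changed 1.5-fold and 92 of 100 changed 2-fold were recovered, with 4 false calls. The simulation changed 200 of 16582 genes, equally in both directions, with the fitted spread and no mouse effect. In the data 71.5% of genes were called, so the simulated rates need not hold for the wild-type contrast. Intervals cover counting error only. Python 3.11.15 and matplotlib 3.10.9 drew the plots.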

Additional observations from a re-analysis of the deposited data

Results flagged for a closer look

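A library was set apart where the gap between the highest or lowest of 8 values and its neighbour, as a share of the range, passed Dixon's limit on log2(CPM + 0.5). Of 348 groups of 8 libraries checked (named genes in each tissue), 30 passed, and chance gives about 1 in 20; the groups share libraries and are not independent. In hypothalamus/thalamus, 13 of 20 such values belonged to male 1, the library whose levels fell with gene length. It was lowest for Glra1 (3.22 CPM against 10.4 to 15.6, gap 0.735), Camk2a (455 CPM against 548 to 619.6, gap 0.601), Grin2a (1.92 CPM against 4.9 to 7.24, gap 0.69), Grin2b (4.0 CPM against 14 to 24.7, gap 0.679), Glra3 (3.68 CPM against 8.21 to 11.6, gap 0.691) and Cacna2d2 (107 CPM against 137 to 160.0, gap 0.609). It was also lowest for Map2 (756 CPM against 1013 to 1294, gap 0.544), Pcdh15 (7.49 CPM against 17 to 20.5, gap 0.809), Tnr (17.7 CPM against 49.3 to 62.3, gap 0.813), Ptprz1 (218 CPM against 295 to 334, gap 0.709) and Slc6a11 (729.7 CPM against 843 to 947, gap 0.554). It was highest for Ntsr2 (124 CPM against 89.6 to 103, gap 0.58) and Syp (1115 CPM against 897 to 989, gap 0.55). Male 7 was lowest for Chrnb4 (0.875 CPM against 8.81 to 12.5, gap 0.851), Chrna3 (3.67 CPM against 14.7 to 20.9, gap 0.792), Tac2 (10.8 CPM against 26 to 33.1, gap 0.782), Otx2 (4.29 CPM against 6.1 to 8.27, gap 0.531) and Zic1 (110.2 CPM against 153 to 195, gap 0.57). In the same tissue, single values stood apart for female 7 in Slc6a3 (2.26 CPM against 26.2 to 122, gap 0.598), the lowest and female 5 in Slitrk6 (48.2 CPM against 27.8 to 35.1, gap 0.577), the highest.

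In hippocampus, 10 values stood apart. The highest were male 7 in Hcrt (0.0957 CPM against 0 to 0.0326, gap 0.639), female 9 in Calcr (0.228 CPM against 0 to 0.0657, gap 0.672), female 3 in Isl1 (0.197 CPM against 0.0311 to 0.0979, gap 0.564), male 5 in Chat (0.124 CPM against 0.0319 to 0.0652, gap 0.62) and male 7 in Chrnb4 (0.606 CPM against 0.0978 to 0.23, gap 0.674), all of them low levels. The lowest were female 5 in Spink8 (14.9 CPM against 18.5 to 20.6, gap 0.663), female 3 in Kcnip1 (12.3 CPM against 14 to 15.5, gap 0.543), female 5 in Kcnab2 (659.8 CPM against 719 to 756, gap 0.631), female 7 in Ptprz1 (231 CPM against 261 to 275, gap 0.699) and female 5 in Evc2 (34 CPM against 38.2 to 41.9, gap 0.553).

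The tissue difference was called to differ between genotypes for 7 genes that the naming rule holds, given as the log2 fold change in Q175 mice minus that in wild-type mice. It was 1.2 for Plk5, 0.55 for Chgb, -1.22 for P2rx5, 0.54 for Evc2, -0.60 for Cdhr1, 0.86 for Wfs1 and 0.67 for Penk.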

How the results depend on the processing

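Called genes ranged from 9224 (males only) to 12591 (no filter on low counts) over the alternatives run, all within 1.5 times of 11859; 11780 were called with no replicate block, 11597 of them shared. Genes called and at least 2-fold numbered 2776 with no replicate block (2760 shared), 2758 to 2830 when 1 mouse was left out and 3564 with DESeq2, but 1446 with limma on log2(FPKM + 1), of which 1403 were shared with the 2786; the added 1 shrinks differences of low genes. The Q175 count was 2612 with no replicate block. The tissue by sex count of 0 was 1 with DESeq2. The tissue by genotype count of 26 was 53 with no replicate block, 140 with DESeq2 and 10 to 43 when 1 mouse was left out. Leaving out any wild-type mouse but female 5, or Q175 female 4, 8 or 10 or male 6, moved it by over 1.5 times, and the cause was not tested. Of 3132 values of 174 named genes under the alternatives, 3090 kept their direction and side of the threshold, 23 lost the call, 19 gained it and 0 reversed. Of 792 list counts under the alternatives, 24 moved by over 1.5 times, 15 of them with limma on FPKM. Genes with fewer than 8 libraries above the filter on low counts (Pou4f1, Nr5a1 and Agrp among them, each with 1 or more libraries near 0) have values only, and depth limits genes with 0 counts in hippocampus (Ucn3, Nkx2-4 and Lhx8) to lower bounds.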
